A study of Mus musculus with 4 samples.

Results

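Basal-labelled mouse mammary cells treated with 100 μM baicalin were compared with basal-labelled cells treated with DMSO, the solvent. All cells came from wild type C57BL/6 mammary glands, were sorted by flow cytometry on CD24 and CD29 after blood and endothelial cells had been gated out, and were grown in Matrigel under medium with insulin, transferrin, selenium and EGF, which both conditions shared. The number of animals behind each library and the day of harvest were not given in the sources used here. Each condition had 1 RNA-seq library. Expression was given as FPKM, the number of fragments on a gene divided by its exon length and by the library's total. Of 54446 listed genes, 18899 had an FPKM above 0 in both libraries and were compared as the difference between baicalin and DMSO in log2(FPKM + 1). Of these, 8485 reached an FPKM of 5 in at least 1 of the 2 libraries and are called well measured.

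With 1 library per condition there was no replicate error, so no test was made and no p-value is given. Differences between these libraries may include variation between cultures, and fewer cells of a type and less RNA per cell cannot be told apart. The libraries held 19852062 (DMSO) and 20282371 (baicalin) counted fragments, recovered from the steps of low FPKM values, and 1 fragment on 1 kb of exon was worth 0.0504 and 0.0493 FPKM. Intervals given with FPKM ratios are exact 95% intervals that cover counting error only. A difference of 1 on the log2 scale was used as the size past which a gene was counted as higher or lower.

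Baicalin is a flavone glucuronide from the root of Scutellaria baicalensis. Basal cells form the outer layer of the mammary duct, where they contract, rest on the basement membrane and include cells with stem cell activity. Membrane transporters set what such cells take up and expel, receptors and secreted proteins carry signals between cells and matrix, transcription factors turn signals into gene expression, and long noncoding RNAs are transcripts that are processed like mRNA but are not translated into a known protein. The genes were grouped into these classes by their symbols, except that long noncoding RNAs were also taken by their annotated type. The class of noncoding RNAs held these and miRNA genes listed by symbol. Small nucleolar, small nuclear and mitochondrial RNAs were not in it.

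The labelled cell type was checked against its markers first. The summed FPKM of 12 basal markers was 1829 in the basal-labelled DMSO library and 515 in the basal-labelled baicalin library, against 5671 and 7543 in the luminal-labelled DMSO and baicalin libraries. The 12 luminal epithelial markers summed to 4659 and 3240 in the basal-labelled libraries and to 1495 and 1291 in the luminal-labelled ones. Acta2, the smooth muscle actin of myoepithelial cells, was at 7.66 FPKM under DMSO and 3.49 under baicalin, and Trp63, the transcription factor of basal epithelium, was at 6.01 and 0.306. The 9 hormone-sensing luminal markers summed to 125 and 188 FPKM in the basal-labelled and to 76.1 and 124 in the luminal-labelled DMSO and baicalin libraries, and the 9 alveolar markers to 204 and 111 and to 69.4 and 170. Most of each alveolar sum came from Aldh1a3, at 173 and 97.8 FPKM in the basal-labelled and 46.4 and 163 in the luminal-labelled libraries. Csn3, Csn1s1, Elf5 and Kit were lower with baicalin in the luminal-labelled libraries, Kit from 6.59 to 0.957 FPKM. Ltf was higher there, at 1.57 and 2.64 FPKM. Some hormone-sensing genes did go with the label: under DMSO, Pgr was at 1.08 FPKM in the basal-labelled and 4.81 in the luminal-labelled library, Foxa1 at 1.80 and 9.30, and Cited1 at 0.0574 and 7.36. Others of the same list went against it under DMSO, with Areg at 63.2 and 21.4 FPKM, Ly6a at 50.6 and 27.95, and Prlr at 6.50 and 2.40. Under baicalin, Foxa1 was at 1.35 FPKM in the basal-labelled and 1.09 in the luminal-labelled library. The basal and luminal epithelial markers thus went against the label, whether the basal and luminal labels were exchanged was not tested, and the libraries are called by their labels throughout.

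Within the basal-labelled libraries, 11 of the 12 basal markers and 9 of the 12 luminal epithelial markers were lower with baicalin, 5 and 2 of them by more than 1. Markers of other cell types stayed low. The 9 fibroblast markers summed to 7.78 FPKM under DMSO and 3.33 under baicalin, the 6 endothelial markers to 0.901 and 1.33, and the 5 adipocyte markers to 0.163 and 0.884. Of the 8 immune markers, Cd3e was at 0 in both libraries and Ptprc was at 0.0138 and 0 FPKM, but Cd68 was at 7.49 and 51.5. The part that these marker differences have in the results below was not tested.

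Short stretches upstream of a few genes that differed by more than 1 are shown next, with 1 match to a known motif in capitals. The genes were picked among those that hold the motif, so the presence of a match was set by the choice and is not a result. For Slc7a11, Isg15 and Ifit1 the searched bases held further matches that are not marked: 2 in all for Slc7a11 and 3 each for Isg15 and Ifit1. Matches can overlap, and in Isg15 an unmarked match shares bases with the marked match. The stretches come from RefSeq windows on GRCm38.p6, where the 250 bases before the gene start were searched on both strands. TTGCATCA, a form of the element bound by ATF4 with CEBP proteins, is held by 0.791% of all 32851 windows. It lies upstream of Slc7a11, which takes up cystine (chr3:50443614-50443705, minus strand, 47 bases before the start), and of Chac1, which degrades glutathione (chr2:119351004-119351101, plus strand, 193 bases before the start).
Slc7a11: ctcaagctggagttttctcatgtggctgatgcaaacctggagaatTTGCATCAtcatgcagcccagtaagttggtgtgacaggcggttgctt
Chac1: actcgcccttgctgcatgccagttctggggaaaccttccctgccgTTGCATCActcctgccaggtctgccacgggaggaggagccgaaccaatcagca

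GAAANNGAA, the core that IRF and STAT complexes bind, is held by 7.13% of the windows. It is shown for 3 genes that were lower with baicalin: Cxcl10, a chemokine (chr5:92349049-92349139, minus strand), Isg15, a ubiquitin-like protein (chr4:156200831-156200929, minus strand), and Ifit1, an RNA-binding protein of the antiviral response (chr19:34640760-34640858, plus strand, the match on the opposite strand).
Cxcl10: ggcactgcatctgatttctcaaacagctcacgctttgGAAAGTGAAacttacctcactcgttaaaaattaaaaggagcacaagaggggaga
Isg15: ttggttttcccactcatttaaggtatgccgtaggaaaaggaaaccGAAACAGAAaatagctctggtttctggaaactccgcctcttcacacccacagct
Ifit1: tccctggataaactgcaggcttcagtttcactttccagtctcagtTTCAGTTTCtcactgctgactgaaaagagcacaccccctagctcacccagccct

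The motifs were not compared over sets of genes, because too few genes had a window. Windows were matched for only 60.1% of the 276 well-measured genes that were higher by more than 1 and for 73.2% of the 395 that were lower. A match is a description of letters, not a binding site.

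Across all genes compared, 389 were higher by more than 1 with baicalin, 2.06% of them, and 595 were lower, 3.15%. Among the well-measured genes these were 276 (3.25%) and 395 (4.66%). The median difference of the well-measured genes was 0.0034, and the middle 90% lay between −0.96 and 0.822. Large differences were mostly downward, since 125 well-measured genes were lower by more than 2 and 39 were higher by more than 2. The threshold fell among close values, with Sfn at −1.003 and Slc29a1 at −1.002 just past it, and Tpm2 at −0.999 and Gstm4 at 0.999 just short of it.

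The classes differed in how many members passed the threshold. Of 201 well-measured transporters and channels, 15 (7.46%) were higher and 6 (2.99%) lower. Of 328 transcription factors, 6 (1.83%) were higher and 8 (2.44%) lower, both shares under the background. Of 162 receptors and other surface proteins, 11 (6.79%) were higher and 9 (5.56%) lower. Of 170 secreted proteins, 14 (8.24%) were higher and 33 (19.4%) lower. Of 102 noncoding RNAs, 16 (15.7%) were higher and 6 (5.88%) lower. Their median differences were 0.113, 0.097, −0.071, −0.095 and 0.358 in the same order. Some higher members were well measured only through their baicalin value, among them the transporters Slc7a11 and Abcc3 and the receptors Vldlr and Unc5b. Some lower members were so only through their DMSO value, among them Slc6a14 and Cntfr. The part of the class and family shares that rests on this filter was not tested. Scaled to TPM, 22 transporters were higher and 10 lower, 17 transcription factors higher and 14 lower, 18 receptors higher and 22 lower, 20 secreted proteins higher and 58 lower, and 60 noncoding RNAs higher and 22 lower, so the balance turned for the transcription factors and for the receptors.

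**Figure D1:**
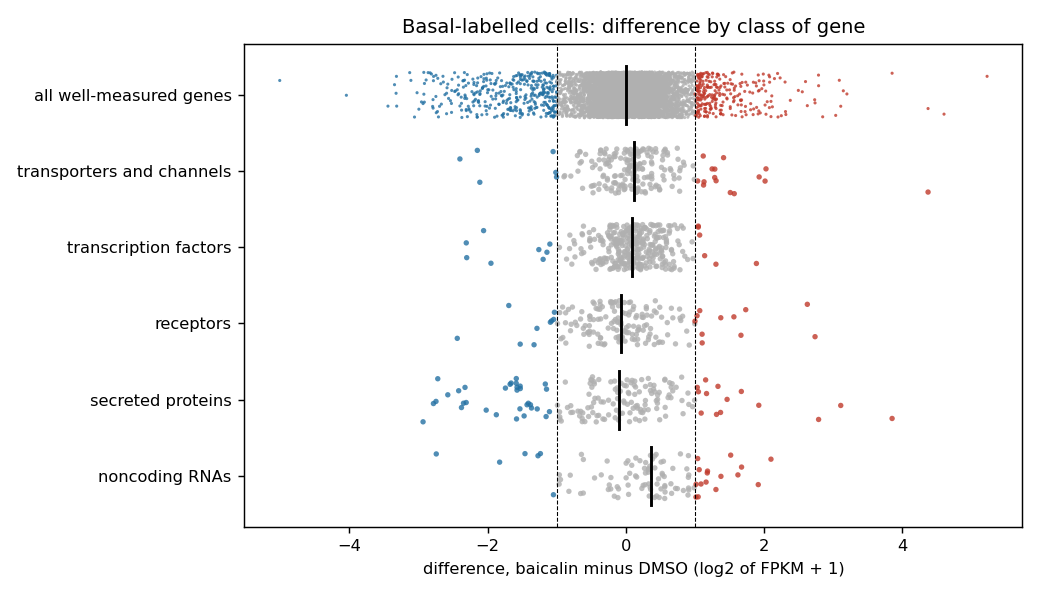
Each point is 1 well-measured gene, placed by its difference between the baicalin and DMSO libraries of basal-labelled cells in log2(FPKM + 1), by class of gene. Black bars are medians, dashed lines mark −1 and 1, and colours mark genes past them. Blue points are most frequent among the secreted proteins, with 33 of 170 lower by more than 1, and the noncoding RNAs have the highest median, 0.358.

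Among the transporters, amino acid carriers held the most members past the threshold, with 5 of 16 well-measured members higher, 1 lower and a family median of 0.58. Slc7a11, the cystine and glutamate exchanger, was at 2.73 FPKM under DMSO and 76.4 under baicalin, a ratio of 27.96 (26 to 30.1). Slc6a9, a glycine carrier, was at 6.96 and 31.5 FPKM, a difference of 2.03. Slc3a2, the heavy chain that Slc7a11 needs to reach the membrane, was at 62.0 and 149 FPKM. All of these were higher with baicalin, the heavy chain by a much smaller ratio (2.40, 2.32 to 2.49) than its partner.

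Slc1a4, a carrier of alanine, serine and cysteine, was at 9.04 and 25.8 FPKM. Slc7a3, a carrier of cationic amino acids such as arginine, was at 2.04 and 7.66 FPKM. The member that went the other way was Slc6a14, a concentrative carrier of neutral and cationic amino acids, at 7.47 FPKM under DMSO and 0.603 under baicalin, a ratio of 0.0808 (0.0575 to 0.111). In the luminal-labelled libraries Slc6a14 was at 1.40 and 3.004 FPKM.

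Of 5 well-measured organic anion and cation carriers, 2 were higher by more than 1 and the lowest was at −0.701. Slc22a4, the carrier of ergothioneine, was at 2.03 and 11.3 FPKM, and Slc22a18, an orphan carrier from an imprinted region, at 1.33 and 7.89. Of the vitamin carriers, Slc19a2 for thiamine was at 7.81 and 18.3 FPKM and Slc5a6 for biotin and pantothenate at 1.94 and 5.05. Slc4a11, a member of the bicarbonate carrier family, was at 12.9 and 33.5 FPKM, and Slc25a33, a mitochondrial pyrimidine nucleotide carrier, at 5.07 and 12.2. Slc29a1, the equilibrative nucleoside carrier, was lower, at 47.6 and 23.2 FPKM.

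Of 17 well-measured ABC transporters, 2 were higher and none was lower by more than 1. Both were exporters of organic anions and glutathione conjugates. Abcc1 was at 13.9 FPKM under DMSO and 31.5 under baicalin, a ratio of 2.27 (2.18 to 2.35), and Abcc3 at 2.51 and 7.56 FPKM, a ratio of 3.01 (2.63 to 3.46).

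Channels went in both directions. Lower with baicalin were Kcne3, a potassium channel subunit of secretory epithelia (6.20 and 0.665 FPKM), Clca3a2, a member of the calcium-activated chloride channel regulators (6.19 and 0.620 FPKM), and Kcnn4, the calcium-activated potassium channel (30.1 and 14.4 FPKM). Clca3a2 has a near-identical copy in Clca3a1, so its value is uncertain. Higher were Kcnk5, a two-pore potassium channel (4.79 and 13.2 FPKM), and Mcoln3, a cation channel of endosomes and lysosomes (11.2 and 35.3 FPKM). Atp1b3, a beta subunit of the sodium pump, was at 91.8 and 43.8 FPKM.

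Carrier families with at least 5 well-measured members and none past the threshold were the 14 zinc carriers, the 12 carriers of iron, copper, manganese and magnesium, the 12 fatty acid and lysolipid carriers and the 14 nucleotide sugar carriers, 52 genes whose differences lay between −0.884 and 0.789. Atp6v0a4 belonged to none of the transporter lists but was among the 30 well-measured genes with the largest downward difference. It encodes a subunit of the proton pump and was at 29.1 FPKM under DMSO and 3.37 under baicalin, a ratio of 0.116 (0.103 to 0.130). Its exons share bases with other genes on both strands, and the strand setting of the counting was not stated.

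**Figure D2:**
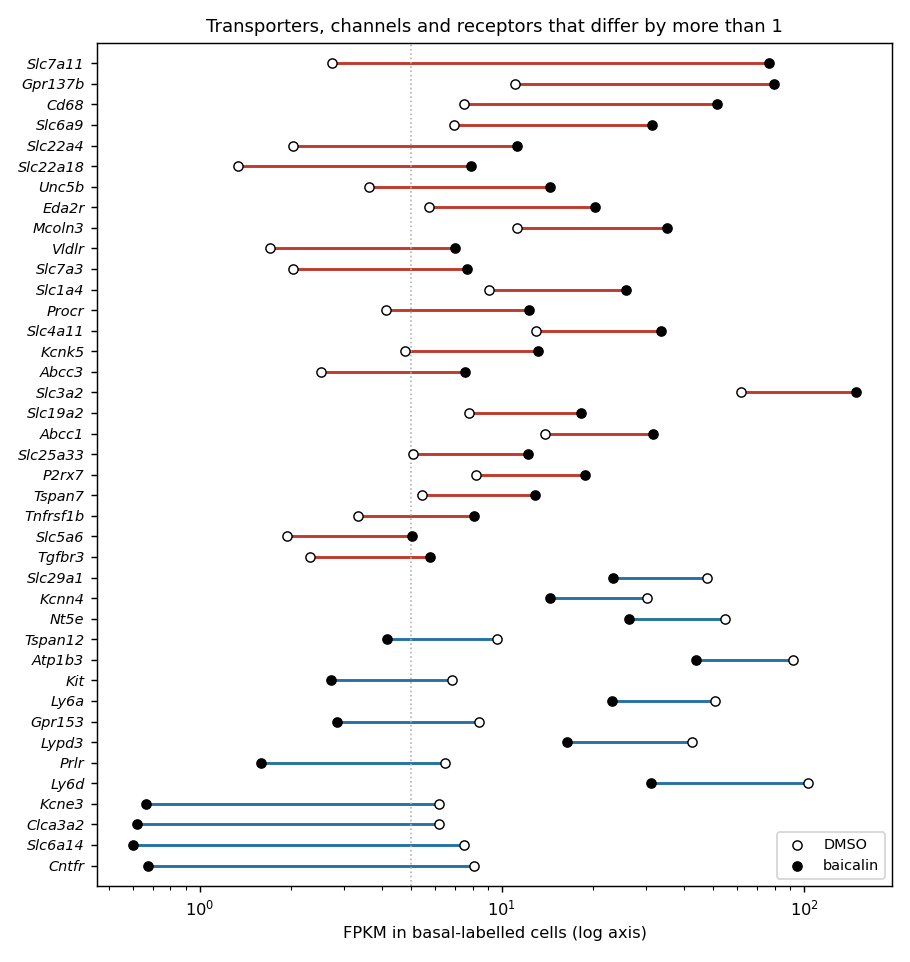
FPKM of the well-measured transporters, channels, receptors and other surface proteins reported here that differed by more than 1 between the libraries of basal-labelled cells, on a log axis. Open points are DMSO, filled points baicalin, red lines mark higher and blue lines lower with baicalin, and the dotted line is the FPKM of 5 that defines well measured. Genes are ordered by their difference in log2(FPKM + 1), from Cntfr (8.07 to 0.673 FPKM) to Slc7a11 (2.73 to 76.4 FPKM).

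Transcription factors were the class with the fewest members past the threshold relative to its size. Of 25 bZIP factors, 2 were higher. Ddit3 (CHOP), a factor of the stress response, was at 9.76 FPKM under DMSO and 38.9 under baicalin, a ratio of 3.98 (3.53 to 4.50). Atf6, a sensor of misfolded protein in the endoplasmic reticulum, was at 9.97 and 22.0 FPKM. Exons of Ddit3 overlap those of Mars on the opposite strand, so its value carries some uncertainty.

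The inhibitors of the bHLH class went apart from each other. Id3 was at 20.8 FPKM under DMSO and 4.62 under baicalin, whereas Id4, which marks basal cells and restrains luminal fate, was at 3.23 and 9.45. Hey1, a repressor induced by Notch, was at 7.81 and 0.785 FPKM, and in the luminal-labelled libraries at 15.8 and 5.44.

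Several further factors were lower with baicalin. Foxm1, a driver of mitotic gene expression, was at 8.55 and 1.29 FPKM, and E2f2, an activator of S phase genes, at 6.95 and 2.61. Irf7, the regulator of type I interferon genes, was at 15.3 and 2.30 FPKM, and all 6 well-measured IRF factors were lower by any amount, with a median of −0.58. Elf5, the ETS factor of alveolar differentiation, was at 14.9 and 5.63 FPKM, and Nr4a2, an orphan nuclear receptor, at 12.96 and 5.51. Foxm1 and Irf7 share exon bases with other genes.

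Zinc finger genes with a Zfp symbol were the largest family, with 116 well-measured members. Only 3 of them were higher by more than 1 (Zfp869, Zfp809 and Zfp958) and 1 was lower (Zfp521). Zfp809, which recruits silencing to retroviral DNA, was at 8.10 and 17.8 FPKM, and Zfp521 at 5.53 and 1.85. The family median was 0.148.

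Other families of transcription factors had no member past the threshold. None of 13 KLF and SP factors, 10 non-cluster homeobox genes, 8 AP-2 and grainyhead factors, 12 RUNX, NFI and SMAD factors, 9 NF-kappaB members and inhibitors, 7 EGR and related genes or 30 ZBTB and ZSCAN genes differed by more than 1. These 89 genes lay between −0.639 and 0.895.

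Among receptors, Gpr137b showed the largest difference. It encodes a lysosomal membrane protein of the orphan G protein-coupled receptor group that binds Rag GTPases, and was at 11.1 FPKM under DMSO and 79.6 under baicalin, a ratio of 7.19 (6.75 to 7.66). In the luminal-labelled libraries it was at 1.90 and 30.9 FPKM. A near-identical pseudogene, Gpr137b-ps, makes its level uncertain. Rragd, a Rag GTPase that was among the 30 largest upward differences, was at 2.90 and 17.3 FPKM, a ratio of 5.98 (5.29 to 6.78).

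Receptors of several other kinds were higher. Eda2r, a TNF receptor for an ectodysplasin isoform, was at 5.74 and 20.4 FPKM, and Tnfrsf1b, the second TNF receptor, at 3.34 and 8.11. Unc5b, a netrin receptor, was at 3.62 and 14.4 FPKM, and Vldlr, a receptor for lipoproteins and reelin, at 1.71 and 7.02. P2rx7, an ATP-gated channel, was at 8.22 and 18.8 FPKM with baicalin higher, while in the luminal-labelled libraries it was at 6.87 and 4.51.

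Cd68, a glycoprotein of late endosomes and lysosomes that is used as a macrophage marker, was at 7.49 FPKM under DMSO and 51.5 under baicalin, a ratio of 6.87 (5.89 to 8.05). The other macrophage markers did not go with it: Adgre1 and Itgam were at 0.0156 and 0.01 FPKM under DMSO and at 0 under baicalin, and Csf1r was at 0.340 and 0.0908. Lyz2 was at 8.84 and 2.17 FPKM, lower with baicalin.

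Of the receptors lower by more than 1, 2 were among 18 well-measured cytokine receptors, 1 among 14 growth factor receptor kinases and 1 among 13 orphan G protein-coupled receptors. Prlr, the prolactin receptor, was at 6.50 and 1.601 FPKM, Kit, the stem cell factor receptor of luminal progenitors, at 6.83 and 2.72, and Cntfr, the ciliary neurotrophic factor receptor, at 8.07 and 0.673. Gpr153, an orphan receptor, was at 8.39 and 2.85 FPKM. All of these were also lower with baicalin in the luminal-labelled libraries, Kit from 6.59 to 0.957 FPKM and Cntfr from 38.7 to 10.5.

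Of 7 well-measured Ly6 and GPI-anchored surface genes, 4 were lower and 1 was higher, with a family median of −1.03. Ly6d was at 103 FPKM under DMSO and 31.2 under baicalin, Nt5e (CD73) at 54.8 and 26.3, Ly6a (Sca-1) at 50.6 and 23.2, and Lypd3 at 42.6 and 16.4. Ly6a, Nt5e and Lypd3 were higher with baicalin in the luminal-labelled libraries, where Ly6a was at 27.95 and 78.1 FPKM. Procr was the member that was higher, at 4.14 and 12.3 FPKM.

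Several surface families had no member past the threshold. None of the 12 well-measured integrins passed it, although 10 of the 12 were lower and their median was −0.368. Eph receptors, adhesion G protein-coupled receptors, receptor tyrosine phosphatases and the Toll-like and C-type lectin receptors had no member past it either. Together with the integrins these families held 36 genes between −0.873 and 0.659.

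The secreted proteins were the class with the largest share lower, 19.4% against 4.66% of all well-measured genes. The class was drawn by symbol, so it also holds a few proteins that stay on or in the cell, among them Muc1, Tmprss4 and Cd55 at the membrane and the retinoid carrier Rbp7 in the cytosol.

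Growth factors formed the group that went mainly upward, with 6 of 23 well-measured members higher and 2 lower and a median of 0.56. Of the higher members, Artn, Angptl6 and Adm2 were well measured only through their baicalin value. Both lower members, Pthlh and Angpt1, were so only through their DMSO value. The part of these counts and of the median that rests on this filter was not tested. Artn (artemin), a neurotrophic ligand of the GDNF family, was at 2.20 FPKM under DMSO and 26.6 under baicalin, a ratio of 12.1 (9.92 to 14.9). Angptl6, an angiopoietin-like protein, was at 0.541 and 9.66 FPKM, a ratio of 17.85 (10.97 to 31.04) that rests on 17 fragments under DMSO. Stc2, a stanniocalcin made under stress, was at 6.70 and 23.5 FPKM. Gas6, the ligand of the TAM receptors, was at 56.5 and 118 FPKM, and Adm2, a peptide of the calcitonin family, at 2.48 and 6.42.

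Of the growth factor genes that were lower, Pthlh, the parathyroid hormone-like hormone that acts in early mammary development, was at 11.1 and 1.04 FPKM. Angpt1, the activating ligand of the TIE2 receptor, was at 10.4 and 2.82. In the luminal-labelled libraries neither differed by more than 0.2 in size on the log2 scale, with Pthlh at 7.66 and 8.94 FPKM and Angpt1 at 4.13 and 3.96.

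Inflammatory ligands were mainly lower. Of 8 well-measured chemokines, 3 were lower and 1 was higher by more than 1, and of 8 interleukins 2 were lower and none was higher. By any amount, 6 chemokines and 5 interleukins were lower, and 2 and 3 were higher. Cxcl10, an interferon-induced chemokine, was at 15.7 FPKM under DMSO and 1.18 under baicalin, a ratio of 0.0754 (0.0561 to 0.0995). Ccl2, which attracts monocytes, was at 33.6 and 4.03 FPKM, and Cxcl2, which attracts neutrophils, at 32.5 and 14.6. Ccl20, which attracts cells with CCR6, was the chemokine that was higher, at 4.08 and 10.4. Of the interleukin family, Il1a was at 39.3 and 13.5 FPKM and its antagonist Il1rn at 8.76 and 2.26, so ligand and antagonist were lower together. Il1a, Il1rn, Ccl2 and Cxcl2 were all higher with baicalin in the luminal-labelled libraries, Il1a from 1.81 to 18.4 FPKM.

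Of 9 well-measured IGF-binding and CCN proteins, 3 were lower by more than 1 and 4 were higher by any amount. Igfbp5, which is abundant in involuting mammary epithelium, was at 211 FPKM under DMSO and 70.3 under baicalin, Igfbp7 at 58.9 and 22.0, and Igfbp3 at 7.43 and 1.67. The family median was −0.498.

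Matrix proteins showed a like picture, with 6 of 18 well-measured matricellular and elastic fibre proteins lower and 1 higher. Tnc (tenascin C), a matrix glycoprotein of developing and wounded tissue, was at 111 FPKM under DMSO and 29.6 under baicalin. Postn (periostin) was at 40.8 and 13.5, Vcan (versican) at 14.1 and 4.02, Mgp at 9.12 and 1.495, and Sparc at 8.10 and 2.03. Smoc1, a calcium-binding protein of the basement membrane, was not on the list of this family. It was among the largest downward differences of all, at 17.1 and 0.818 FPKM, a ratio of 0.0478 (0.0361 to 0.0623).

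Higher matrix genes were Lox, the lysyl oxidase that crosslinks collagen and elastin, at 4.04 and 12.04 FPKM, and Nid1, the nidogen that links laminin to collagen IV, at 5.21 and 14.6. Both were also higher in the luminal-labelled libraries, Nid1 from 9.44 to 60.0 FPKM. The 14 semaphorins, netrins, slits and ephrins had no member past the threshold and lay between −0.4 and 0.49.

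Several proteases and protease inhibitors were lower. Timp1, an inhibitor of matrix metalloproteinases, was at 74.9 FPKM under DMSO and 13.6 under baicalin, a ratio of 0.182 (0.158 to 0.208). Of 16 kallikreins and serine proteases, 5 were lower and none was higher by more than 1, and 7 were higher by any amount. Tmprss4 was at 21.7 and 3.45 FPKM, Klk8 at 25.7 and 9.38, Klk10 at 10.3 and 3.27, and Klk6 at 7.12 and 0.619. In the luminal-labelled libraries these 4 proteases were higher with baicalin, with Klk6 at 3.65 and 28.2 FPKM. Of 12 well-measured cystatin, WAP, Kazal and related inhibitors, 2 were lower and 1 was higher, with a median of 0.195, and of 4 serpins 1 was lower. Wfdc12 was at 11.05 and 0.827 FPKM and Serpine2 at 15.6 and 6.45, whereas Cst6, a cystatin, was higher at 4.82 and 10.9.

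Galectins, which bind galactose-containing glycans, had 4 members lower and 1 higher among 7 well-measured genes of their family. Lgals1 was at 475 FPKM under DMSO and 164 under baicalin, Lgals7 at 65.7 and 19.9, Lgals9 at 48.6 and 13.8 and the galectin-binding Lgals3bp at 24.5 and 8.47. Lgals4 was higher, at 2.48 and 6.75. In the luminal-labelled libraries none of these 5 differed by more than 1, with Lgals1 at 237 and 221 FPKM.

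**Figure D3:**
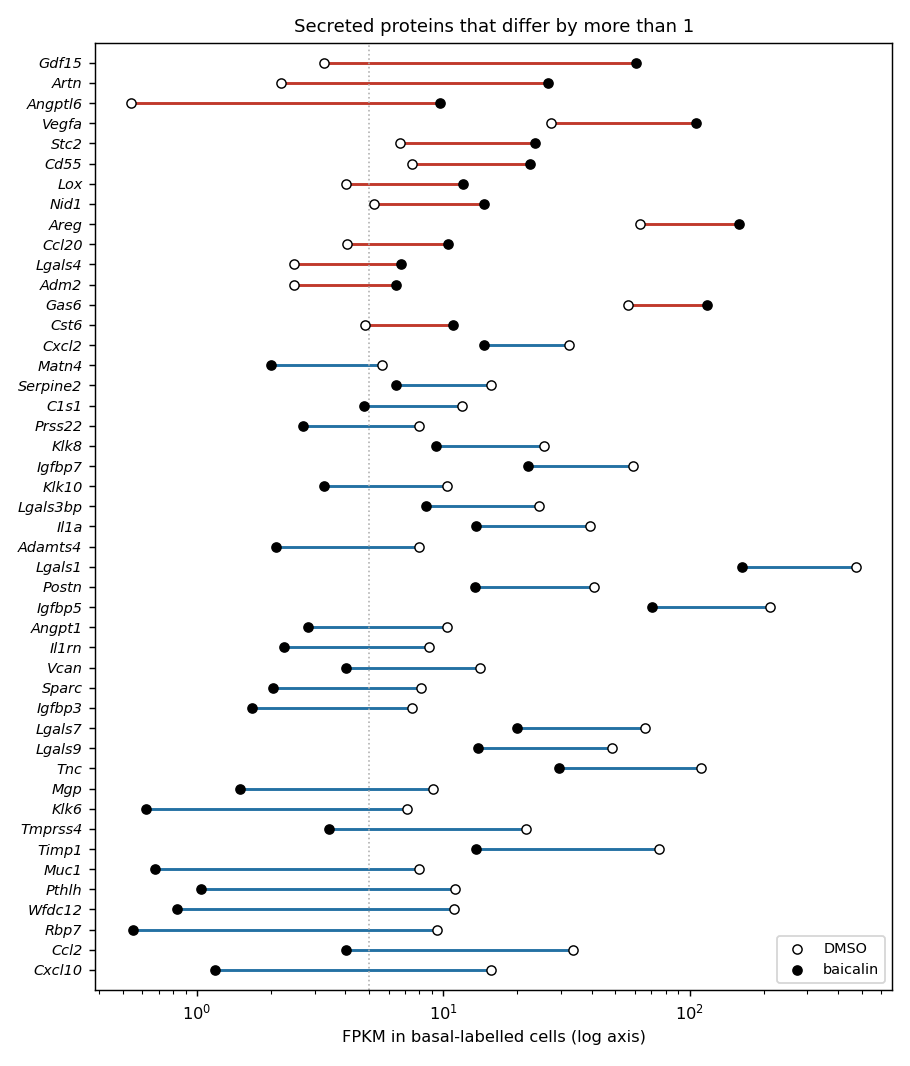
FPKM of the well-measured genes of the secreted protein lists reported here that differed by more than 1 between the libraries of basal-labelled cells, on a log axis. Open points are DMSO, filled points baicalin, red lines mark higher and blue lines lower genes, and the dotted line is an FPKM of 5. Genes are ordered by their difference in log2(FPKM + 1), with Gdf15 and Artn highest and Ccl2 and Cxcl10 lowest, so the length of a line, which is a ratio, does not follow the order for low values.

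Noncoding RNAs had the highest share of members higher by more than 1, 15.7% against 3.25% of all well-measured genes. Some of the higher members reached an FPKM of 5 only under baicalin, among them Pvt1, Gm15675, 5430416N02Rik and the 3 miRNA precursors described below. The part of the share that rests on this filter was not tested. Hosts of small nucleolar RNAs, whose introns hold the guides of rRNA modification, made up a large part of the higher members. The hosts were listed by symbol, so the list may not hold every host gene. Of its 11 well-measured genes, 6 were higher by more than 1, 10 were higher by any amount, and the family median was 1.02. Snhg12 was at 12.5 FPKM under DMSO and 50.04 under baicalin, a ratio of 4.00 (3.65 to 4.38). Gas5, a host named for its growth arrest-specific level, was at 51.8 and 136 FPKM, a ratio of 2.63 (2.53 to 2.73).

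Epb41l4aos was at 11.9 and 38.9 FPKM, Zfas1 at 19.6 and 42.9, Snhg8 at 23.7 and 49.9, and Snhg15 at 7.26 and 15.7. Snhg6 fell short of the threshold, at 16.0 and 30.9 FPKM, and Snhg3 was the host that was lower, at 8.17 and 6.90. In the luminal-labelled libraries 1 of the hosts passed the threshold, Snhg12 at 12.5 and 30.9 FPKM, and the family median was 0.187. Zfas1 overlaps Znfx1 on the opposite strand, so its value is uncertain.

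Of the long noncoding RNAs that were not on the host list, 2410006H16Rik was at 115 FPKM under DMSO and 495 under baicalin, a ratio of 4.32 (4.04 to 4.62). Pvt1, the transcript next to Myc, was at 1.39 and 5.84 FPKM, and Bc1, a short RNA polymerase III transcript, at 14.4 and 30.8. H19, an imprinted RNA, was at 6.63 and 0.140 FPKM, from 324 fragments under DMSO to 7 under baicalin, a ratio of 0.0211 (0.00844 to 0.0441). Also lower were AI506816 at 54.5 and 22.6 FPKM, BC006965 at 7.64 and 2.58, and Gm567 at 5.16 and 0.736.

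**Figure D4:**
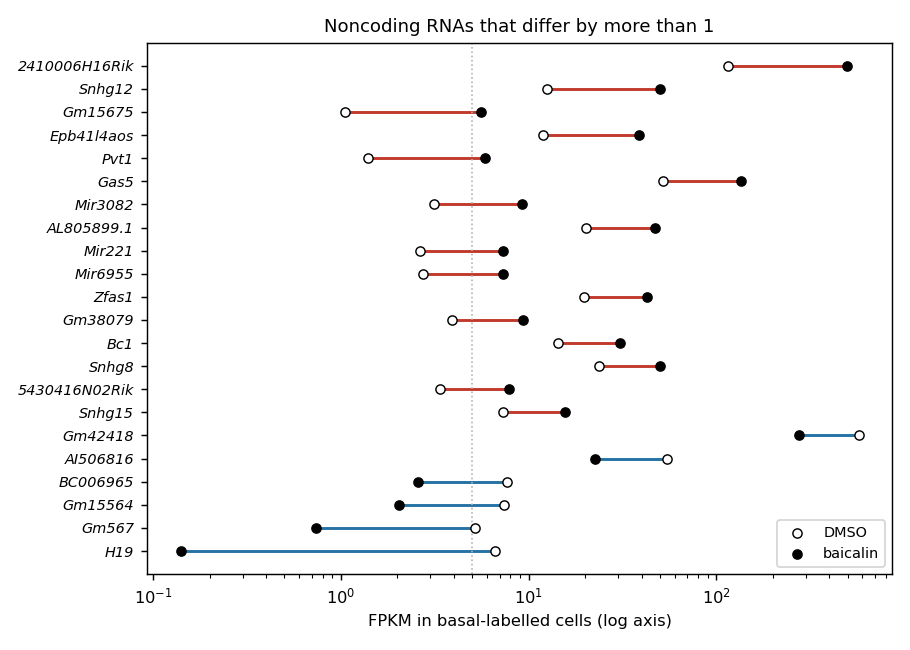
FPKM of each well-measured member of the noncoding RNA class that differed by more than 1 between the libraries of basal-labelled cells, on a log axis. Open points are DMSO, filled points baicalin, red lines mark the 16 higher and blue lines the 6 lower genes, and the dotted line is an FPKM of 5. The 6 genes from the list of snoRNA hosts, Snhg12, Epb41l4aos, Gas5, Zfas1, Snhg8 and Snhg15, are all among the red lines.

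Short noncoding genes rested on few fragments. The precursors of 3 miRNAs were higher by more than 1, but their intervals included a ratio of 1: Mir221 went from 5 to 14 fragments, a ratio of 2.74 (0.933 to 9.72). The libraries were made from polyadenylated RNA, so mature miRNAs were not measured. Outside the class, 41 small nucleolar RNAs were well measured, of which 7 were higher and 3 lower by more than 1. Of 3 small nuclear RNAs, 2 were higher and none was lower. The shares over all well-measured genes were 3.25% higher and 4.66% lower. Both mitochondrial rRNAs were higher, mt-Rnr1 at 128 and 591 FPKM and mt-Rnr2 at 353 and 823, while the 13 mitochondrial protein-coding genes had ratios between 0.464 and 1.15 with a median of 0.816. The nuclear Gm42418, which overlaps ribosomal RNA sequence, was lower, at 572 and 276 FPKM. These values moved with the treatment label, and their part in the other differences was not tested.

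In some enzyme and cytoskeletal families, all members past the threshold lay on one side. Of 42 well-measured Schlafen, Trim and Parp genes, which include many antiviral proteins, 8 were lower and none was higher by more than 1, and 15 were higher by any amount. Slfn9 was at 17.2 FPKM under DMSO and 1.56 under baicalin, Parp14 at 24.4 and 5.99, Parp9 at 28.6 and 7.18 and Parp12 at 24.2 and 6.45. Of 14 tubulins, 3 were lower and 13 were lower by any amount, among them Tubb6 at 65.9 and 27.5 FPKM. The other 2 past the threshold were Tuba1a at 76.1 and 32.8 FPKM and Tuba1b at 122 and 54.8. These 2 are near-identical to each other and to further genes, so they may share fragments.

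Some enzymes that act on drugs, carbonyls and aldehydes were higher. Of 19 well-measured aldo-keto and carbonyl reductases, 2 were higher and 1 was lower, with a median of 0.163, and of 6 cytochromes P450, 1 was higher. Cbr3, a carbonyl reductase, was at 2.57 FPKM under DMSO and 31.8 under baicalin, a ratio of 12.4 (9.58 to 16.2), while its relative Cbr2 was lower, at 31.0 and 8.25. Cyp1b1, a cytochrome P450 of oestrogen and polycyclic compounds, was at 156 and 465 FPKM. Of 7 aldehyde dehydrogenases, 3 were higher: Aldh3a1 at 65.7 and 254 FPKM, the mitochondrial folate enzyme Aldh1l2 at 1.44 and 13.8, and the proline synthesis enzyme Aldh18a1 at 15.1 and 32.9.

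Of 14 well-measured sestrin, tribbles, Gadd45 and related stress genes, 5 were higher and 1 was lower, with a median of 0.785. Gadd45a was at 30.9 and 141 FPKM, Trib3 at 20.1 and 90.5, Sesn2 at 6.45 and 28.1 and Chac1 at 2.86 and 14.3. The lower member was Trib2, at 31.7 and 12.02 FPKM. Within the thioredoxin group, Srxn1, which repairs peroxiredoxins, was at 12.5 and 46.2 FPKM, and Txnip, which binds thioredoxin, at 13.2 and 35.8, whereas Prdx4, the peroxiredoxin of the secretory pathway, was lower at 16.0 and 5.01. Txnip was lower with baicalin in the luminal-labelled libraries, at 242 and 138 FPKM.

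Enzymes that release or use lipid mediators were split. Pla2g4a, the cytosolic phospholipase that frees arachidonic acid, was at 17.97 FPKM under DMSO and 51.7 under baicalin, and Ptgs2, the inducible cyclooxygenase, at 89.0 and 182. Pla2g7, which degrades platelet-activating factor, was lower, at 63.4 and 15.6. The 9 well-measured genes of this group had a median of 0.197.

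Some of the largest differences belonged to no family. Acod1, which makes itaconate, was at 12.8 and 0.602 FPKM, a ratio of 0.0469 (0.0318 to 0.0668), and Moxd1, a monooxygenase-like protein, at 16.7 and 1.22. Casp14, a caspase of epidermal differentiation, was at 1.24 and 18.1 FPKM, a ratio of 14.6 (11.2 to 19.3). Ampd3, an AMP deaminase, was at 9.61 and 47.9, Itpk1, an inositol phosphate kinase, at 3.61 and 22.0, and Soat2, which esterifies cholesterol, at 0.364 and 5.77. Sh2d6, an adaptor-like gene, went from 1 to 220 fragments, a ratio of 221 with a wide interval of 38.2 to 8543.

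Exons of 38 of the 250 genes selected for naming share bases with a gene on the opposite strand, among them Slc6a9, Cxcl10, Igfbp7, Il1a and Txnip, and 19 have a near-identical copy, among them Slc5a6, Ly6a and Cd55. Their values are uncertain to that extent. Some large differences could not be assigned to 1 gene. Gapdh was at 6.52 and 34.8 FPKM, but 45 near-identical sequences in the genome may share its fragments. The same held for the pseudogenes Rps26-ps1 (6.73 and 62.5 FPKM) and Gm8210 (14.1 and 0.510 FPKM), and for the pair Ifit3 and Ifit3b. Leaving out moved genes with such a copy over at least 50% of a transcript left 344 higher and 553 lower.

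The same genes were then read in the luminal-labelled libraries, which share no library with the comparison above. Of the 276 well-measured genes higher by more than 1 in basal-labelled cells, 246 were higher by any amount in luminal-labelled cells and 97 by more than 1, while 2 were lower by more than 1. Their median difference was 1.30 in basal-labelled and 0.675 in luminal-labelled cells. Of the 395 lower genes, 291 were lower by any amount in luminal-labelled cells and 57 by more than 1, while 31 were higher by more than 1. Their medians were −1.59 and −0.477. Over all 8485 well-measured genes the median in luminal-labelled cells was −0.019. The shares of those 8485 genes that were higher, lower or past 1 in luminal-labelled cells were not counted, so these counts have no background beside them. With 1 library per condition the difference between the labels could not be tested.

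**Figure D5:**
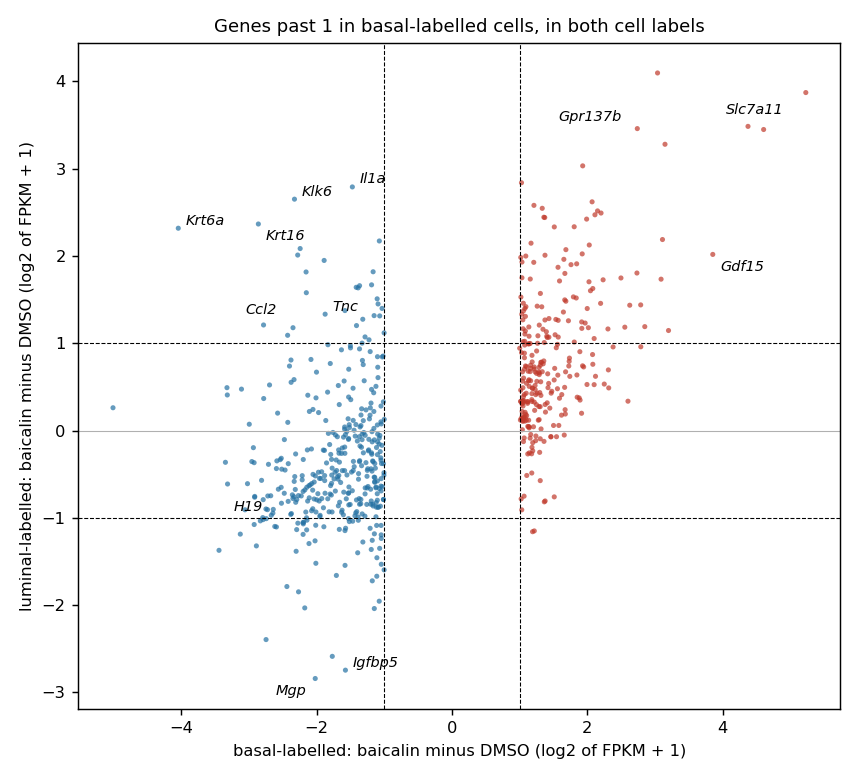
Each point is 1 of the 671 well-measured genes past 1 in basal-labelled cells, placed by its difference in log2(FPKM + 1) between baicalin and DMSO in basal-labelled (horizontal) and luminal-labelled cells (vertical). Dashed lines mark −1 and 1. Of the 395 genes on the left, 31 lie above 1 on the vertical axis, among them Krt6a, Krt16, Klk6 and Il1a, and of the 276 on the right 2 lie below −1.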

How the data were processed

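RNA from 4 libraries of sorted mouse mammary cells was sequenced by the authors after oligo(dT) enrichment and stranded library preparation. The authors aligned reads with HISAT2 to GRCm38, counted fragments with featureCounts on Ensembl release 94, and deposited FPKM values with 4 decimals. The strand setting was not stated, and the submitters' processing notes also name Bowtie 0.12.2 without a role. No column of the table was left unmapped. A fit across replicates, as in the study's methods, could not be made with 1 library per condition.

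Here, FPKM was compared as log2 with a pseudocount of 1, over genes above 0 in both basal-labelled libraries. Exon lengths, positions and gene types came from GENCODE release 21. Fragments were recovered from FPKM and exon length: 98.7% and 98.6% of genes under 30 fragments fell within 0.05 of a whole number. Intervals were exact Clopper-Pearson intervals (scipy 1.17.1). The steps were tested on simulated libraries. Near-identical sequences (95% identity over 200 bases) were found with minimap2 2.31 and overlaps with bedtools 2.31.1.

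The 102 families, the classes and the markers were chosen with earlier results of these data known, and 2 family patterns were corrected afterwards. Genes were named by a rule: up to 6 members past 1 in each family, the 30 largest differences in each direction, markers and long noncoding RNAs. Not every selected gene is printed, and some are not reported here. Genes cited as overlapping or as other members for context were chosen after their values were seen. Motifs searched were the antioxidant element (TGACNNNGC), the CEBP-ATF element (TTGCATCA), the xenobiotic element (GCGTG), the interferon element (GAAANNGAA), the E2F element (GGCGGGAA), the cell cycle element (TTTGAA), the NF-Y box (CCAAT), the TATA box (TATAAA), the AP-1 element (TGANTCA) and the E-box (CACGTG). None of the others overlapped the printed matches. Alternatives are given in the closing section.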

Additional observations from a re-analysis of the deposited data

Results flagged for a closer look

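A number of named genes lay past 1 in size in both cell labels but in opposite directions, lower with baicalin in basal-labelled and higher in luminal-labelled cells. The difference between the labels was not tested, since each condition had 1 library. As the basal-labelled minus the luminal-labelled difference in log2(FPKM + 1), the keratins were at −6.36 for Krt6a, −5.23 for Krt16 and −2.86 for Krt17, and the desmosomal cadherin Dsg3 at −2.59. The proteases were at −4.98 for Klk6, −3.53 for Tmprss4, −3.02 for Klk8 and −2.61 for Klk10. The inflammatory ligands were at −4.26 for Il1a, −3.99 for Ccl2, −2.96 for Il1rn and −2.61 for Cxcl2, and the complement protease C1s1 at −2.98. The matrix gene Tnc was at −3.21, and the surface genes at −2.54 for Ly6a, −2.43 for Nt5e and −2.33 for Lypd3. No named gene went the other way, higher by more than 1 in basal-labelled and lower by more than 1 in luminal-labelled cells.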

How the results depend on the processing

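Counts of genes past 1 depended on the pseudocount and the scale. With a pseudocount of 0.1, 1204 genes were higher and 1364 lower in place of 389 and 595, and 10 noncoding RNAs were lower in place of 6. Scaled to TPM, which multiplies the FPKM by 3.64 and 3.55 so that the pseudocount weighs less and more genes reach 5, 735 genes were higher and 1028 lower. The same scaling gave 10 transporters lower, 17 transcription factors higher and 14 lower, 18 receptors higher and 22 lower, 58 secreted proteins lower, and 60 noncoding RNAs higher and 22 lower. All other counts stayed within 1.5 times the reported ones under these settings. The same held with genes above 0 in either library, above 0 in all 4 libraries or with at least 10 fragments, and with centring on the median. For the counts of all genes it also held without those found to have a near-identical copy (344 and 553), an alternative chosen after seeing the data. Most moved genes under an FPKM of 5 were not searched for copies. The 250 genes selected for naming kept their direction under every alternative in which they had a value, while 122 moved beyond their counting interval with the pseudocount of 0.1 and 105 on the TPM scale. No paired analysis was possible because each condition had 1 library, and no library could be left out.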
